A study of Mus musculus with 6 samples.

Results

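The splicing factor genes were the 63 genes of the count table, out of 12027, whose mapped mouse symbol names a serine/arginine-rich splicing factor (Srsf genes, 10), a Tra2 factor (2), one of the nuclear speckle genes Son, Srrm1, Srrm2 and Rbm39 (4), a Clk kinase (4), a heterogeneous nuclear ribonucleoprotein (Hnrnp genes, 20), a subunit of SF3A or SF3B (9), a U2AF subunit (2) or a protein of the small nuclear ribonucleoproteins (Snrp genes, 4 of U1 and U2 and 8 of the Sm ring). They were chosen by symbol and not by any measured value, and all 63 passed the filter on low counts. A further 8 symbols that fit the same patterns, most of them pseudogenes, had no row and were not analysed here. All libraries were made from the livers of C57BL/6 males aged 8 weeks that had undergone partial hepatectomy (PHX), in which part of the liver is removed and the remainder grows back. The groups were OGT-KO (OGT-/y) and its control (OGTfl/y) at 28 days, OGA-KO (OGA-/-) and its control (OGAfl/fl) at 14 days, and the same OGA pair at 28 days. The deletions were described as hepatocyte-specific, so the other cells of the liver kept the gene, and the Cre driver was not given in the sources used here. Each group was 1 library made from the pooled RNA of 3 mice, so no group had a spread between replicates.

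Splicing removes introns from pre-mRNA. The U1 particle binds the 5′ splice site, U2AF reads the end of the intron, and the U2 particle with its SF3A and SF3B complexes holds the branch point. U1 and U2 are each built on a ring of Sm proteins. SR proteins and TRA2 factors bind exons and favour their inclusion, many hnRNP proteins oppose it, and CLK kinases phosphorylate the SR proteins. SON and SRRM2 are scaffold proteins of nuclear speckles, where these factors are stored. OGT attaches the sugar O-GlcNAc to nuclear and cytosolic proteins, OGA removes it, and many RNA-binding proteins carry it. The table gives counts per gene, so the levels of the factors were measured and the splicing of their targets was not.

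Library totals ran from 20433100 to 29327722 counts. Oga, listed under its older symbol Mgea5, had 282 counts in OGA-KO against 1525 in control at 14 days and 317 against 1760 at 28 days, and Ogt had 1205 counts in OGT-KO against 1339 in control. Oga fell in OGT-KO too, with 1023 counts against 1400 in its control (log2 -0.73, edgeR adjusted p = 0.004, and -0.36 by library totals). The Ogt ratio (log2 -0.43, edgeR adjusted p = 0.0144, and -0.06 by library totals) did not show a depletion like that of Oga, so it is no check of the OGT-KO label, and reads outside a deleted part or from other cells stay in such a count. The OGT-KO library stood apart from the others in composition. The summed level of 8 matrix and stellate markers was 2236 CPM (counts per 1e6 of the TMM-scaled library size) in OGT-KO against 228 CPM in its control. The same sums were 930 against 244 CPM for 8 macrophage markers, 459 against 65.4 CPM for 6 cholangiocyte markers and 172 against 21.0 CPM for 7 mitosis markers, and all genes of these 4 lists rose. Endothelial markers did not follow: of 6, 1 rose and 3 fell, and they summed to 129.5 CPM in OGT-KO against 147.8 CPM in its control. The 1 lymphocyte marker with a row rose (22.9 against 8.88 CPM). Hepatocyte markers summed to 54370 CPM in OGT-KO against 79600 CPM in its control, and 6 of 7 fell. Their part in the results below was not tested, and in whole tissue a change in the number of cells and a change in RNA per cell cannot be told apart. The OGA-KO library at 28 days held 121 CPM of 6 pancreas acinar markers, against 0.497 CPM in its control.

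Splicing factor genes made up 0.609% of the counts in OGT-KO and 0.484% in its control, against 0.437% to 0.474% in the 4 OGA libraries. After TMM scaling, which removes the weight of a few very abundant genes, their summed level was 4456 CPM in OGT-KO and 4585 CPM in its control. The OGA sums were 5143 CPM in OGA-KO against 4985 CPM in control at 14 days and 5073 against 4838 CPM at 28 days. The order of OGT-KO and its control in total splicing factor RNA therefore turned round with the scaling. Single members ranged from 3.08 CPM (Snrpn in OGT-KO) to 546 CPM (Srrm2 in OGA-KO at 28 days), and no member had fewer than 86 counts in any library, so all were well above the floor of 3 counts.

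In OGT-KO at 28 days, 9 splicing factor genes rose and 12 fell against the OGT control, and most changes were small. Srrm1, Snrpe, Hnrnpa1, Hnrnpdl, Tra2a, Tra2b, Clk1, Srsf3 and Sf3b1 rose, and Hnrnph3, Snrpa, U2af1, Hnrnpul2, Sf3b5, Snrpd3, Rbm39, Hnrnpu, Srsf4, Sf3b2, Hnrnpa3 and Srrm2 fell (edgeR quasi-likelihood test over all genes, Benjamini-Hochberg adjusted p under 0.05). These 21 were 33.3% of the members, where 52.7% of all 12026 genes tested changed, 26.1% higher and 26.6% lower. The members' median log2 ratio was 0.02, and that of all genes was -0.00061. At least 1.5-fold differences were reached by 2 members upward (Snrpe and Srrm1) and 3 downward (Hnrnph3, Snrpa and Snrpn), against 24.8% of all genes upward and 22.2% downward. At 2-fold, 0 members were higher and Hnrnph3 was the 1 lower, against backgrounds of 16.4% and 11.7%. The median size of a member's log2 ratio, in either direction, was 0.25, and that of all genes was 0.54. The test has 1 residual degree of freedom, from the OGA libraries, and takes the OGT pair to have the same spread. DESeq2 kept Srrm1 (higher) and Hnrnph3 (lower), and a fit without the term for mouse line kept Hnrnph3. Of all genes, DESeq2 called 10.04% higher and 14.0% lower, and the fit without the line term called 13.44% and 11.8%.

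**Figure D1:**
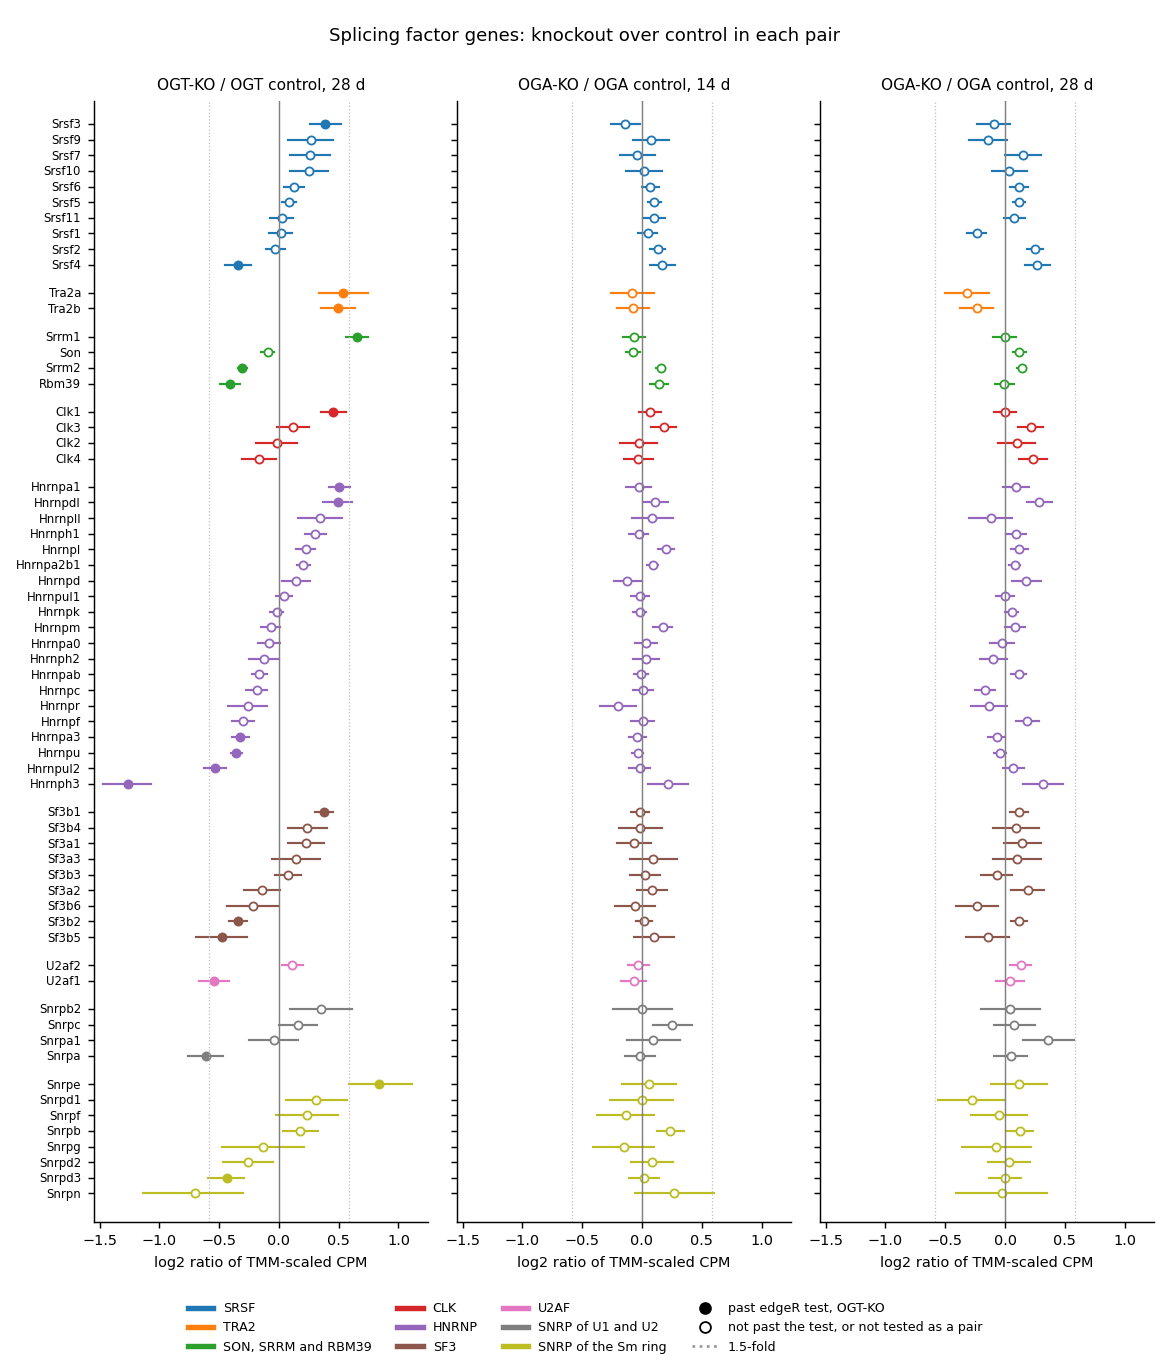
Log2 ratio of TMM-scaled CPM (x axis) of each of the 63 splicing factor genes (y axis, by family) in the 3 knockout/control pairs, with 95% counting intervals as lines. Filled points passed the edgeR test in OGT-KO, open points did not or belong to OGA pairs, and Hnrnph3 in OGT-KO (log2 -1.26) lies farthest from 0.

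Scaling moved all of these ratios together. By library totals, with no composition factor, the median log2 ratio in the OGT pair was 0.369 for all genes and 0.39 for the splicing factor genes. Under that scaling 36 members were called higher and 1 lower, against 44.4% and 15.5% of all genes, and the 9 that rose were still among the 36. Of the 12 that fell, 5 (Hnrnpa3, Hnrnpu, Sf3b2, Srrm2 and Srsf4) then had a log2 ratio above 0. A fit that leaves out an OGA library has to drop the term for the day as well, since no residual degree of freedom would remain, so it changes both. The log2 ratio in such a fit still comes from the same 2 OGT libraries (Hnrnph3 -1.27 and Srrm1 0.66 each time). What changes is the spread taken from the OGA libraries. A call kept there is thus no repeat of the difference between OGT-KO and its control. Dropping the day term alone, with all 6 libraries kept, gave 9 higher and 8 lower calls, against 25.0% and 25.4% of all genes. Hnrnph1 was then called higher, and Srsf3, Sf3b5, Snrpd3, Srrm2 and U2af1 were no longer called. Dropping the day term together with either OGA control library, of 14 or of 28 days, gave 7 higher and 6 lower calls, against 22.8% and 23.8% of all genes. Calls made without the day term alone but not without either OGA control as well were those of Hnrnph1, Sf3b1, Sf3b2, Hnrnpu and Hnrnpa3. The calls of Srrm1, Snrpe, Hnrnpa1, Hnrnpdl, Tra2a, Tra2b and Clk1 upward, and of Hnrnph3, Snrpa, U2af1, Hnrnpul2, Rbm39 and Srsf4 downward, were made in all 4 fits that dropped the day term and 1 OGA library.

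**Figure D2:**
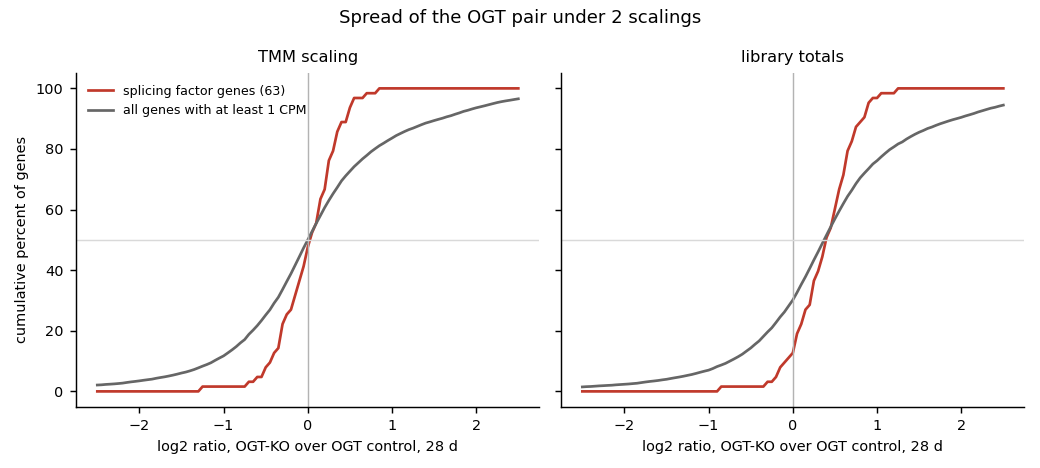
Cumulative percent of genes (y axis) against the log2 ratio of OGT-KO over OGT control at 28 days (x axis), for the 63 splicing factor genes (red) and all genes with at least 1 CPM (grey). Both curves cross 50% near 0 with TMM scaling and near 0.39 and 0.369 with library totals, and the red curve is the steeper one in both panels.

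Against the 5 other libraries, OGT-KO was the highest library for 14 members, the lowest for 25 and within their range for 24. Of all genes it was the highest for 36.9% and the lowest for 36.7%. By library totals it was the highest for 47 members and the lowest for 2. No share of all genes is given for that scaling, under which the median log2 ratio of all genes was 0.369. These 2 counts therefore have no background and are not read as a trait of the members. All 12 members that fell in OGT-KO were below the other 5 libraries with TMM scaling. Of the 9 that rose, 6 were above the other 5 (Srrm1, Snrpe, Hnrnpa1, Srsf3, Sf3b1 and Tra2b). For Clk1, Hnrnpdl and Tra2a, OGT-KO lay within the range of the other 5, and the OGT control was the lowest library of all 6.

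Promoter sequences are shown for the members with the clearest ratios, Srrm1 upward and Hnrnph3 downward, and for Tra2a and Tra2b, which rose together. They are the 250 bases before and 50 after the start from RefSeq, on GRCm38.p6, all on the minus strand, read 5′ to 3′. Srrm1 is at chr4:135353097-135353396, Tra2a at chr6:49264003-49264302, Tra2b at chr16:22265956-22266255 and Hnrnph3 at chr10:63023800-63024099. Capitals mark matches, on either strand, to the CCAAT box (CCAAT), the GC box (GGGCGG), the ETS site (CCGGAAG), the E-box (CACGTG), the TATA box (TATAAA), the YY1 site (AAGATGGC), the E2F site (TTTGGCGC) and the cyclic AMP response element (TGACGTCA).
Srrm1: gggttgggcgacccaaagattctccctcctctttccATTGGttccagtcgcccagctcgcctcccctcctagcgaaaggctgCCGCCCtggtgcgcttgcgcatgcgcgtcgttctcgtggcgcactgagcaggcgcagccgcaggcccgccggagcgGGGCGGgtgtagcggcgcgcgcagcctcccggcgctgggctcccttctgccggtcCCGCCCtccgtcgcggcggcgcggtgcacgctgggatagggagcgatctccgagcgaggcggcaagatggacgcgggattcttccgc
Tra2a: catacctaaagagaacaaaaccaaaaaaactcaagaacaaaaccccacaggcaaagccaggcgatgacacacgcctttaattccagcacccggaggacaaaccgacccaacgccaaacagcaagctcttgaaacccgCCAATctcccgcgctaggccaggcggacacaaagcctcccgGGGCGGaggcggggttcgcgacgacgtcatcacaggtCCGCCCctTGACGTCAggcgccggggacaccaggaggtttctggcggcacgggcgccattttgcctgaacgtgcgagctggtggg
Tra2b: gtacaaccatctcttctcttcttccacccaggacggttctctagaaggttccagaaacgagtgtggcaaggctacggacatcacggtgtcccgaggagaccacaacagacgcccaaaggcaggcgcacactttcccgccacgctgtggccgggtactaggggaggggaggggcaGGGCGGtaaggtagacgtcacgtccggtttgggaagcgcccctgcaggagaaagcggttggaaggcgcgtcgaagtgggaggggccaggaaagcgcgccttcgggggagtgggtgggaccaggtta
Hnrnph3: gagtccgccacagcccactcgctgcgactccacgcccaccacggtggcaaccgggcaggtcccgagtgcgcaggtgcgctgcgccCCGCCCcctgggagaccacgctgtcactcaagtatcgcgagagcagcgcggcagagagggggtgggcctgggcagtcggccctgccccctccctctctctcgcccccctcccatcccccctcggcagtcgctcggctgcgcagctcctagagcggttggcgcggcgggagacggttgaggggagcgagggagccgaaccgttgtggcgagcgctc

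Both members of the TRA2 pair hold a GC box, and the 4 promoters have no motif of this set in common beyond it. Srrm1 holds 1 CCAAT box and 3 GC boxes, Tra2a holds 1 CCAAT box, 2 GC boxes and 1 cyclic AMP response element, and Tra2b and Hnrnph3 hold 1 GC box each. RefSeq promoters were matched for 55 of the 63 members, 75 promoters in all. The ETS letters were in 29.3% of these, against 8.86% of all 32851 promoters in the table and 17.0% of those of genes in the count table. The GC box was in 66.7%, against 35.7% and 60.9%. The CCAAT box was in 46.7%, against 37.4% and 37.6%, and TATAAA was in 9.33%, against 13.6% and 7.58%. Matches to the cyclic AMP response element were in 5.33% (1.79% and 2.84%), to the E-box in 10.7% (7.15% and 9.81%), to the YY1 site in 2.67% (2.75% and 4.37%) and to the E2F site in 0 (0.514% and 0.938%). These shares describe the letters in each window and were not tested.

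Among the SR proteins, which bind exonic enhancers and help to define exons, 1 of 10 rose and 1 fell in OGT-KO. Srsf3, a small SR protein that also takes part in mRNA export, had 45.6 CPM in OGT-KO and 34.8 CPM in its control. In the OGA libraries it had 39.8 CPM in OGA-KO against 43.9 CPM in control at 14 days and 34.3 against 36.7 CPM at 28 days. OGT-KO was thus the highest library, by a small margin over the OGA control of 14 days that was not tested. Against the OGT control the log2 ratio was 0.39 (SE 0.10, edgeR adjusted p = 0.023). This call of Srsf3 was lost without the day term, with all OGA libraries kept or with any 1 of them left out. Srsf4 had 48.8 CPM in OGT-KO against 61.8 CPM in its control and between 55.0 and 66.4 CPM in the OGA libraries (log2 -0.34, SE 0.10, adjusted p = 0.0327, and 0.03 by library totals). The other 8 SR genes had log2 ratios from -0.03 (Srsf2) to 0.27 (Srsf9). The summed level of the 10 was 694 CPM in OGT-KO and 665 CPM in its control, below the 837 to 925 CPM of the OGA libraries. Srsf1, the best known member, had 71.0 CPM in OGT-KO and 70.3 CPM in its control (log2 0.02, -0.08 to 0.11), and 89.3 to 105 CPM in the OGA libraries.

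Both TRA2 genes, whose proteins bind GA-rich exonic enhancers, rose in OGT-KO, where 26.1% of all genes rose. Tra2a had 19.3 CPM in OGT-KO against 13.3 CPM in its control (log2 0.54, SE 0.15, adjusted p = 0.0318). Tra2b had 38.3 CPM against 27.2 CPM (log2 0.50, SE 0.11, adjusted p = 0.0168). The OGT control was the lowest of the 6 libraries for both genes. In the OGA libraries Tra2a had 19.4 CPM in OGA-KO against 20.5 CPM in control at 14 days and 17.5 against 21.7 CPM at 28 days. The ratio of Tra2a to Tra2b counts, which no scaling can move, was 0.505 in OGT-KO and 0.49 in its control, and 0.545 to 0.581 in the OGA libraries, so the genes kept nearly the same proportion in all 6.

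Of the 4 speckle genes Srrm1 rose while Srrm2 and Rbm39 fell, where 26.1% of all genes rose and 26.6% fell. Srrm1 (SRm160), a coactivator that bridges SR proteins on enhancers and the core machinery, had 2867 counts or 103 CPM in OGT-KO and 1505 counts or 65.2 CPM in its control. The OGA libraries held 73.3 CPM in OGA-KO against 76.9 CPM in control at 14 days and 73.1 against 73.3 CPM at 28 days. OGT-KO therefore lay above the other 5 libraries, and its own control was the lowest of them. The OGT control lay below the OGA control at 28 days (log2 -0.17, -0.27 to -0.07). Against the OGT control the log2 ratio was 0.66 (SE 0.10, edgeR adjusted p = 0.00358). The call of Srrm1 was made in 10 of 11 alternative fits, all with the same OGT-KO library. It was lost without the line term (adjusted p = 0.0756). Srrm2, its partner in the SRm160/300 coactivator, had 394 CPM in OGT-KO and 487 CPM in its control (log2 -0.31, SE 0.10, adjusted p = 0.0445, and 0.06 by library totals). Its call was made in 2 of 11 alternatives and was lost without the day term, with all OGA libraries kept or with any 1 of them left out. The ratio of Srrm1 to Srrm2 counts was 0.261 (0.250 to 0.272) in OGT-KO against 0.134 (0.127 to 0.141) in its control, and 0.134 to 0.169 in the OGA libraries. Rbm39, a splicing factor related to U2AF2, had 80.4 CPM in OGT-KO and 107 CPM in its control, with 104 to 115 CPM in the OGA libraries (log2 -0.41, SE 0.11, adjusted p = 0.0246). Son had 219 CPM in OGT-KO and 234 CPM in its control (log2 -0.10, -0.15 to -0.04, adjusted p = 0.517).

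Of the 4 CLK kinases, which phosphorylate SR proteins, 25.0% were called, against 52.7% of all genes. The 1 called was Clk1, which rose. It had 73.1 CPM in OGT-KO and 53.2 CPM in its control, while the OGA libraries lay between 74.0 and 77.5 CPM (log2 0.46, SE 0.10, adjusted p = 0.0122). The OGT control was thus the library that stood apart, and without the line term, which sets OGT-KO against controls of both lines, Clk1 was not called (adjusted p = 0.723). Clk4 had 28.8 CPM in OGT-KO and 32.3 CPM in its control, against 41.5 to 48.8 CPM in the OGA libraries. The ratio of Clk1 to Clk4 counts was 2.54 (2.34 to 2.76) in OGT-KO and 1.65 (1.5 to 1.81) in its control, and 1.58 to 1.86 in the OGA libraries. Clk2 (log2 -0.02, -0.19 to 0.15) and Clk3 (log2 0.11, -0.02 to 0.25) did not pass the test. Clk3 had 37.8 CPM in OGT-KO and 34.9 CPM in its control, well under the 56.1 to 67.6 CPM of the OGA libraries, and it shares 15.2% of its exon bases with Edc3 on the other strand.

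**Figure D3:**
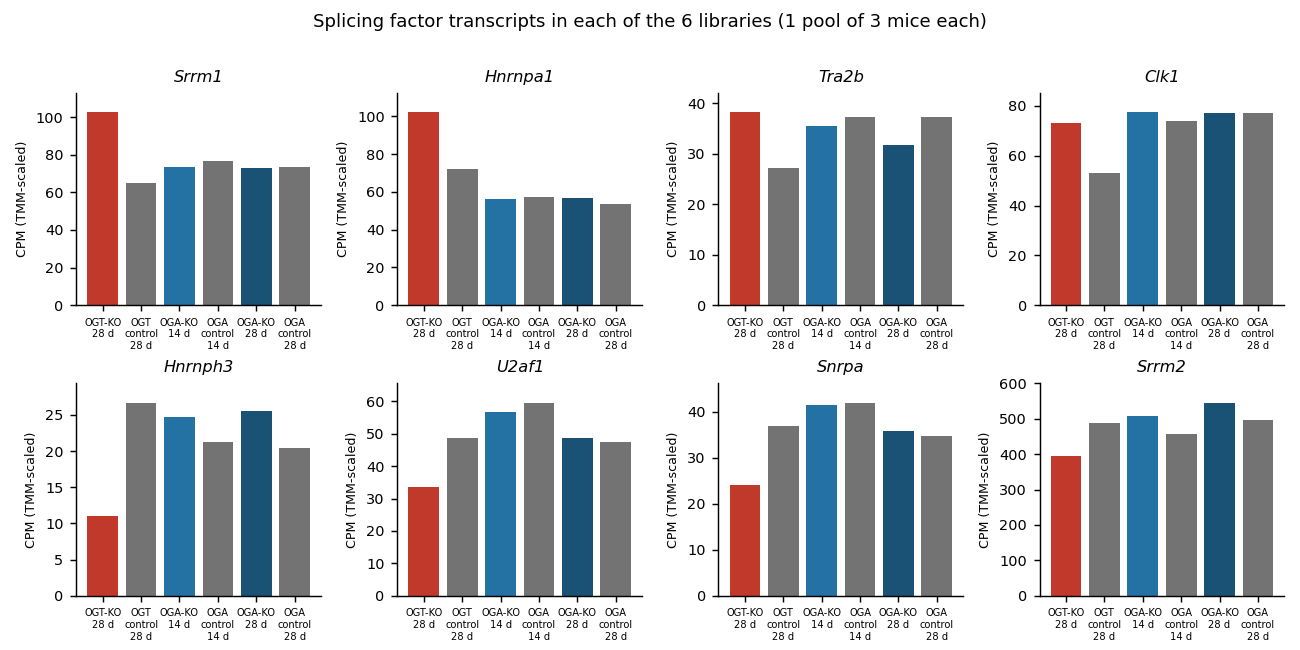
TMM-scaled CPM (y axis, from 0) of 8 splicing factor genes in each of the 6 libraries (x axis), with OGT-KO in red, OGA-KO in blue and controls in grey, and 1 bar per library, so without error bars. Srrm1 and Hnrnpa1 are highest and Hnrnph3, U2af1, Snrpa and Srrm2 lowest in OGT-KO, while for Srrm1, Clk1 and Tra2b the OGT control is the lowest bar.

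Of 20 hnRNP genes, 2 rose and 4 fell in OGT-KO, a share of 30.0% against 52.7% of all genes. Hnrnph3, a member of the hnRNP H/F group that binds G-rich RNA, had the largest change of any splicing factor gene, with 309 counts or 11.1 CPM in OGT-KO and 616 counts or 26.7 CPM in its control. In the OGA libraries it had 24.7 CPM in OGA-KO against 21.2 CPM in control at 14 days and 25.5 against 20.4 CPM at 28 days. OGT-KO was the lowest library by a wide margin. Against the OGT control the log2 ratio was -1.27 (SE 0.13, edgeR adjusted p = 0.00116). The call of Hnrnph3 was made in 11 of 11 alternative fits, all with the same OGT-KO library. Its relatives moved less. Hnrnph1 had 99.6 CPM in OGT-KO and 80.6 CPM in its control (log2 0.30, adjusted p = 0.0541), and Hnrnpf 68.4 and 84.5 CPM (log2 -0.30, adjusted p = 0.0639). The ratio of Hnrnph1 to Hnrnph3 counts was 9.0 (8.0 to 10.2) in OGT-KO and 3.02 (2.76 to 3.32) in its control, and 4.0 to 4.78 in the OGA libraries. Hnrnph3 shares 3.65% of its exon bases with Rufy2 on the other strand.

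Hnrnpa1, a repressor of exon inclusion, rose. It had 102 CPM in OGT-KO and 72.0 CPM in its control, both above the 53.5 to 57.1 CPM of the OGA libraries (log2 0.51, SE 0.10, adjusted p = 0.00938). Hnrnpdl had 52.9 CPM in OGT-KO and 37.6 CPM in its control, the lowest of the 6 libraries, with 54.0 to 65.9 CPM in the OGA libraries (log2 0.49, SE 0.11, adjusted p = 0.0143). Hnrnpul2 fell to 62.0 CPM in OGT-KO, against 89.6 CPM in its control and 80.1 to 85.6 CPM in the OGA libraries (log2 -0.53, SE 0.10, adjusted p = 0.00778). Hnrnpu, also called SAF-A, an abundant protein of the nuclear matrix, had 268 CPM in OGT-KO and 344 CPM in its control (log2 -0.36, SE 0.10, adjusted p = 0.029, and 0.01 by library totals). Hnrnpa3 had 107 CPM in OGT-KO and 134 CPM in its control (log2 -0.32, adjusted p = 0.0396, and 0.05 by library totals). The calls of Hnrnpu and Hnrnpa3 were made without the day term and were lost when either OGA control was left out with it. The other 14 hnRNP genes had log2 ratios from -0.30 (Hnrnpf) to 0.34 (Hnrnpll). The family summed to 2002 CPM in OGT-KO and 2088 CPM in its control.

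Of the 9 SF3 genes, whose products bind the branch point as part of U2, 1 rose and 2 fell. That is 33.3% of them, against 52.7% of all genes. Sf3b1, the largest subunit, had 138 CPM in OGT-KO and 107 CPM in its control, with 107 to 116 CPM in the OGA libraries (log2 0.37, SE 0.11, adjusted p = 0.0313). Sf3b2, another SF3B subunit, had 106 CPM in OGT-KO and 135 CPM in its control, with 129 to 140 CPM in the OGA libraries (log2 -0.34, SE 0.10, adjusted p = 0.0378, and 0.03 by library totals). Sf3b5, a small subunit, had 12.1 CPM in OGT-KO and 16.9 CPM in its control, with 19.3 to 23.2 CPM in the OGA libraries (log2 -0.48, SE 0.16, adjusted p = 0.0487). The calls of Sf3b1 and Sf3b2 were made without the day term and were lost when either OGA control was left out with it, and that of Sf3b5 was lost without the day term alone. Subunits of 1 complex thus differed in both directions, and their sum was 430 CPM in OGT-KO and 423 CPM in its control.

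U2af1, which reads the AG at the end of the intron, fell to 33.5 CPM in OGT-KO, against 48.8 CPM in its control and 47.3 to 59.6 CPM in the OGA libraries (log2 -0.54, SE 0.10, adjusted p = 0.00815), and its call was lost without the day term when all 6 libraries were kept. Its partner U2af2, which binds the pyrimidine tract, had 87.2 CPM in OGT-KO and 80.7 CPM in its control (log2 0.11, 0.02 to 0.20, adjusted p = 0.42). The share called among the U2AF genes was 50.0%, against 52.7% of all genes. The ratio of U2af1 to U2af2 counts was 0.385 (0.356 to 0.415) in OGT-KO and 0.605 (0.561 to 0.652) in its control, and 0.561 to 0.692 in the OGA libraries. Among the proteins of U1 and U2, Snrpa, the U1-A protein, fell to 24.1 CPM in OGT-KO, against 36.9 CPM in its control and 34.8 to 42.0 CPM in the OGA libraries (log2 -0.61, SE 0.10, adjusted p = 0.00596). Snrpa shares 11.03% of its exon bases with BC024978 on the other strand. Snrpc of U1 (log2 0.16, with an interval from just below 0 to 0.32) and the U2 proteins Snrpa1 (log2 -0.04, -0.25 to 0.16) and Snrpb2 (log2 0.35, 0.09 to 0.61) did not pass the test. The share called among these U1 and U2 genes was 25.0%, against 52.7% of all genes.

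In the Sm ring, the scaffold shared by the particles, Snrpe rose, Snrpd3 fell and the other 6 genes did not pass the test. The share called was 25.0%, against 52.7% of all genes. Snrpe had 13.6 CPM in OGT-KO and 7.58 CPM in its control, the lowest of the 6 libraries, with 11.5 to 12.6 CPM in the OGA libraries (log2 0.84, SE 0.15, adjusted p = 0.00751). Snrpd3 had 24.8 CPM in OGT-KO and 33.6 CPM in its control, with 35.6 to 40.8 CPM in the OGA libraries (log2 -0.44, SE 0.10, adjusted p = 0.0174), and its call was lost without the day term alone. Snrpn, an imprinted relative of Snrpb, had 3.08 CPM in OGT-KO and 5.07 CPM in its control (log2 -0.70, -1.14 to -0.30, adjusted p = 0.0586). Summed over the ring, the level was 116.2 CPM in OGT-KO and 116.4 CPM in its control, against 147 to 169 CPM in the OGA libraries.

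**Figure D4:**
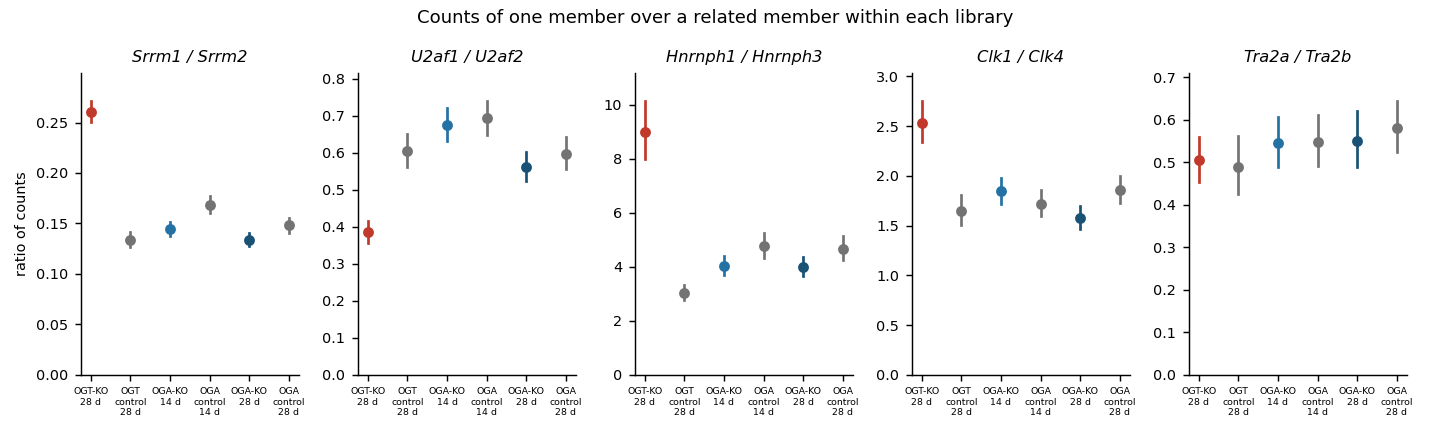
Ratio of the counts of one splicing factor gene to those of a related one (y axis, from 0) in each of the 6 libraries (x axis), with 95% counting intervals, for pairs chosen after their values were seen. OGT-KO (red, leftmost) lies outside the other 5 libraries for Srrm1/Srrm2, U2af1/U2af2, Hnrnph1/Hnrnph3 and Clk1/Clk4, and at 0.505 beside its control at 0.49 for Tra2a/Tra2b.

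A further 3 such ratios were computed. Srsf1 to Srsf9 was 3.5 in OGT-KO and 4.16 in its control, and 3.56 to 3.80 in the OGA libraries. Hnrnpd to Hnrnpdl was 0.934 in OGT-KO and 1.19 in its control, and 0.710 to 0.904 in the OGA libraries. Hnrnpl to Hnrnpll was 5.0 in OGT-KO and 5.43 in its control, and 5.93 to 6.99 in the OGA libraries. These are ratios of counts, which depend on transcript length, and are compared between libraries, not between genes. For Srsf1 to Srsf9 and Hnrnpd to Hnrnpdl, the OGT control was the highest of the 6 libraries.

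In OGA-KO, 0 splicing factor genes passed the edgeR test over both times, where 0.0333% of all genes did (0.0249% higher and 0.00832% lower). The smallest adjusted p was 0.329 (Srsf4), and DESeq2 called 0. At an unadjusted p under 0.05, 5 members were higher and 0 lower. The share of all genes at that unadjusted threshold is not given, so this count has no background. No member differed by 1.5-fold at either time, against 2.79% of all genes higher and 1.84% lower at 14 days and 5.0% and 3.55% at 28 days. The log2 ratios lay between -0.20 (Hnrnpr) and 0.27 (Snrpn) at 14 days and between -0.31 (Tra2a) and 0.36 (Snrpa1) at 28 days. The medians were 0.02 and 0.08, beside 0.0016 and 0.0045 for all genes. Hnrnph3 had log2 ratios of 0.22 (0.05 to 0.39) at 14 days and 0.32 (0.15 to 0.49) at 28 days, with OGA-KO above its control both times. Srsf4 had 65.4 CPM in OGA-KO against 58.0 CPM in control at 14 days and 66.4 against 55.0 CPM at 28 days (log2 0.17 and 0.27). Srsf2 had 165 against 150 CPM at 14 days and 153 against 129 CPM at 28 days (log2 0.13 and 0.25), and shares 15.6% of its exon bases with Mettl23 on the other strand. Snrpa1 of U2 had log2 ratios of 0.10 (-0.12 to 0.32) and 0.36 (0.15 to 0.58).

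Counting intervals lay wholly above 0 for 14 members and wholly below 0 for 4 at 14 days, against 16.9% and 14.8% of all genes, and for 25 and 5 members at 28 days, against 22.2% and 20.3%. At both times, 11 members had intervals above 0 and 0 had intervals below 0. They were Clk3, Hnrnpa2b1, Hnrnpdl, Hnrnph3, Hnrnpl, Hnrnpm, Snrpb, Srrm2, Srsf2, Srsf4 and Srsf5. Hnrnpm shares 14.69% of its exon bases with March2 on the same strand. Of all genes 8.52% lay above 0 and 6.57% below 0 both times. Srrm2, for example, had 508 CPM in OGA-KO against 456 CPM in control at 14 days and 546 against 495 CPM at 28 days (log2 0.16 and 0.14). Snrpb, which encodes the B and B′ Sm proteins, had 57.8 against 49.0 CPM at 14 days and 49.3 against 45.4 CPM at 28 days. Among members with at least 10 CPM, the lowest ratios were at 28 days, where Tra2a had a log2 ratio of -0.31 (-0.50 to -0.13), Tra2b -0.24 (-0.38 to -0.10), Srsf1 -0.24 (-0.32 to -0.16) and Sf3b6 -0.23 (-0.41 to -0.06). At 14 days the same genes had -0.08, -0.07, 0.05 and -0.06. Below that level, Snrpd1 of the Sm ring had 7.56 CPM in OGA-KO and 9.17 CPM in control at 28 days (log2 -0.28). None of these members passed the edgeR test, and intervals cover counting error only. Of the remaining genes near the ends, Hnrnpc was at 0.01 and -0.17, Snrpc at 0.25 and 0.08, Snrpf at -0.14 and -0.05, and Snrpg at -0.15 and -0.07 at 14 and 28 days. Snrpf shares 65.85% of its exon bases with Ccdc38 on the other strand.

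The difference between the effects was tested directly. The OGT-KO effect minus the OGA-KO effect was positive past the test for 7 members and negative for 9, which is 25.4% of the members against 44.1% of all genes (21.4% positive and 22.7% negative). The positive ones were Snrpe (0.76), Tra2a (0.74), Srrm1 (0.69), Tra2b (0.65), Srsf3 (0.51), Hnrnpa1 (0.47) and Clk1 (0.42). The negative ones were Hnrnph3 (-1.54, adjusted p = 0.00175), Snrpa (-0.63), Srsf4 (-0.56), Hnrnpul2 (-0.56), U2af1 (-0.53), Rbm39 (-0.48), Srrm2 (-0.46), Snrpd3 (-0.45) and Sf3b2 (-0.41). Hnrnph3 was lower in OGT-KO and at positive ratios in both OGA pairs, and the TRA2 genes were higher in OGT-KO and at negative ratios in both OGA pairs. At 14 days the OGA intervals of Tra2a (-0.26 to 0.10) and Tra2b (-0.21 to 0.06) crossed 0. Neither Hnrnph3 nor the TRA2 genes passed the edgeR test in OGA-KO. Without the line term the difference was -1.23 for Hnrnph3 and past the test, and 0.17 for Tra2a and 0.29 for Tra2b and not past it. The OGT control was the lowest library for both TRA2 genes.

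Control libraries gave a yardstick for differences between pools without a deletion. Between OGA control at 28 and at 14 days, 0 members differed by 1.5-fold, against 2.13% of all genes higher and 1.9% lower, and the ratios lay between -0.34 (Snrpg) and 0.12 (Srrm2). Between OGT control and OGA control at 28 days, 5 members were at least 1.5-fold lower (Clk3, Tra2a, Srsf9, Snrpb and Snrpe) and 0 higher, against 13.8% and 13.3% of all genes. The largest of these, Clk3, had 34.9 CPM in OGT control and 58.3 CPM in OGA control (log2 -0.74). Other members below 0 there were Srsf1 (-0.58), Clk1 (-0.53), Hnrnpa2b1 (-0.53) and Hnrnpdl (-0.52), and those above 0 included Sf3b3 (0.45), Hnrnpa1 (0.43) and Sf3b4 (0.42). The median size of a member's log2 ratio was 0.2455 between these controls and 0.2478 in OGT-KO over its control. For all genes it was 0.33 between these controls and 0.54 in OGT-KO over its control. Line, pool and any difference in handling cannot be told apart in this comparison, and OGT-KO over OGT control shares the OGT control with it.

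Other genes of the splicing pathway were taken from 9 lists by role, of which 142 of 152 genes had a row. In OGT-KO 27 rose and 21 fell, 33.8% in all, with a median log2 ratio of 0.05, where 52.7% of all genes changed (26.1% higher and 26.6% lower). In 8 of the 9 lists the share was below that of all genes. The SR kinases and phosphatases, which act on the same substrates as the CLK kinases, held 1 risen gene of 9, the kinase Srpk1 (50.2 CPM in OGT-KO, 37.9 CPM in its control), and 1 fallen, Dyrk1b (8.17 and 13.4 CPM). In the U4/U6.U5 group 3 of 14 rose and 3 fell. Prpf8, the core protein of the active spliceosome, fell to 165 CPM in OGT-KO, against 300.2 CPM in its control (log2 -0.86, adjusted p = 0.0017), while Prpf31 rose (log2 0.70, adjusted p = 0.00885) and Prpf6 fell (log2 -0.67, adjusted p = 0.0104). Of 10 LSm ring genes 2 rose, Lsm8 (log2 1.53) and Lsm3 (log2 1.24), and 3 fell, among them Lsm10 (log2 -1.03). In the Prp19 group 2 of 16 rose, Ppie among them, and 2 fell, Prpf19 and Cwc15. In the list drawn up for helicases and second-step factors, Dhx38 was the 1 of 14 genes that rose (96.4 CPM in OGT-KO, 44.0 CPM in its control, log2 1.13, adjusted p = 0.000666). Prpf40b was the 1 that fell (log2 -0.84). The lists are broad, and a gene's place in a list is not an exact statement of its role. Snrnp25 and Zrsr1 rose among 9 minor spliceosome genes, and Rnps1 was 1 of 2 that rose among 19 genes of the exon junction complex and nonsense-mediated decay.

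Among tissue-regulated splicing factors 8 of 22 rose and 5 fell, a share of 59.1% that lay near the 52.7% of all genes. Rbm3, a cold-inducible RNA-binding protein, rose to 112 CPM in OGT-KO, against 25.2 CPM in its control (log2 2.15, adjusted p = 0.000568). Tia1 (log2 1.29) and Rbms1 (log2 1.14) rose too. Among 29 other RBM and SR-related genes 6 rose and 6 fell. Rbm25, a splicing regulator with a PWI domain, had 139 CPM in OGT-KO and 67.8 CPM in its control (log2 1.04, adjusted p = 0.000887), and Sfswap (log2 0.94) and Rbmx (log2 0.87) rose. Rbmx had 13.6 CPM in OGT-KO and 7.45 CPM in its control, both below the 18.6 to 22.8 CPM of the OGA libraries. By library totals the ratios of Prpf8 (-0.49), Prpf6 (-0.30), Lsm10 (-0.66) and Prpf40b (-0.47) stayed negative. In OGA-KO 0 of the 142 passed the test.

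**Figure D5:**
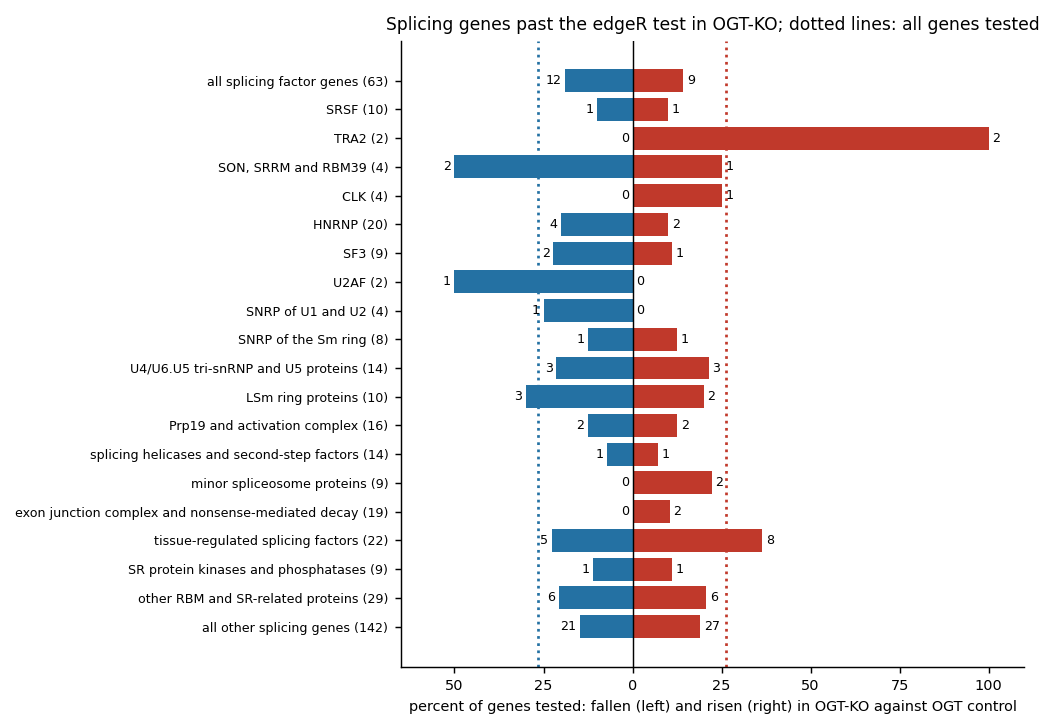
Percent of genes tested (x axis) that fell (blue, left) or rose (red, right) in OGT-KO against OGT control at 28 days by the edgeR test, for the splicing factor families and the other splicing gene lists (y axis, number tested in brackets, number called at each bar end). Dotted lines mark the shares of all genes, 26.6% lower and 26.1% higher, and the 63 splicing factor genes lie inside both lines with 12 and 9 called.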

How the data were processed

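Messenger RNA of whole liver was sequenced in 6 libraries, 1 per group. Per the labels, RNA was extracted with TRIZOL, libraries were made with the Tecan universal plus mRNA-seq kit, and each was run in 2 lanes. The authors deposited whole-number counts per Ensembl gene, made with STAR and Subread on mm39, per the submitters' processing notes, which also name edgeR. Versions, strand and multimapping settings were not given in the sources used here, so reads of overlapping genes and near-identical paralogs or pseudogenes may be shared; 7 members share at least 10% of their exon bases with another gene that has a row. A deposited normalised table was not used. The table was used as deposited, with no row removed before the fit.

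Symbols came from GENCODE M21 (12019 of 12027 identifiers), so no coordinates of counted genes are given; promoters and exon overlaps are on GRCm38. edgeR 4.0.16 (R 4.3.3) fitted all 6 libraries with 5 coefficients, for the intercept, the mouse line, the day and the 2 knockouts, using TMM scaling and filterByExpr (12026 genes), Benjamini-Hochberg adjusted p under 0.05; the OGA-KO effect is a mean over both times. Only genes past it are said to rise or fall. Ratios within a pair are log2 of TMM-scaled CPM with a prior count of 2, with exact Clopper-Pearson 95% intervals of the counting error only; PCR copies of 1 molecule cannot be recognised in them. A gene entered the fold rules (1.5-fold and 2-fold) with at least 1 CPM. With 1 pool of 3 mice per group no replicate check was possible. The alternatives were other scalings, no filter, DESeq2 1.42.0, no line or day term, each OGA library left out together with the day term, a prior count of 10 and other CPM minimums. The scripts were tested on simulated data.

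The members and lists were chosen with earlier results of these data known. Members were named by rule: fixed genes (the CLK, TRA2, U2AF, SON, SRRM and RBM39 genes), the 8 highest and 8 lowest ratios of the OGT pair and the 5 highest and 5 lowest of each OGA pair at 10 CPM or more, 2-fold differences, and up to 3 genes per list. Other members named above, the count ratios of related genes and the place of OGT-KO among the libraries were chosen after their values were seen.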

Additional observations from a re-analysis of the deposited data

Results flagged for a closer look

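Differences between the OGT-KO and OGA-KO effects (log2, edgeR contrast past the adjusted threshold) are set out here for a closer look. They were positive for Snrpe (0.76), Tra2a (0.74), Srrm1 (0.69), Tra2b (0.65), Srsf3 (0.51), Hnrnpa1 (0.47) and Clk1 (0.42). They were negative for Hnrnph3 (-1.54), Snrpa (-0.63), Srsf4 (-0.56), Hnrnpul2 (-0.56), U2af1 (-0.53), Rbm39 (-0.48), Srrm2 (-0.46), Snrpd3 (-0.45) and Sf3b2 (-0.41). Hnrnpd had a log2 ratio of -0.12 in the OGA pair at 14 days and 0.18 at 28 days, and Son -0.0733 and 0.12, each with a counting interval on opposite sides of 0; with 1 library per group this difference between times was not tested.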

How the results depend on the processing

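No paired analysis was possible because each group held 1 library. The counts of splicing factor genes called in OGT-KO (9 higher, 12 lower) were 36 and 1 by library totals, 14 and 5 with upper-quartile factors, 1 and 1 with the DESeq2 Wald test, and 0 and 1 without the line term. Of all genes, 44.4% were called higher and 15.5% lower by library totals, and 30.93% and 23.04% with upper-quartile factors. Those shares were 10.04% and 14.0% with the DESeq2 Wald test, and 13.44% and 11.8% without the line term. Without the day term alone the counts of splicing factor genes were 9 and 8. With the day term dropped and 1 OGA library left out as well (no residual degree of freedom would remain otherwise) they ranged from 7 to 8 higher and from 6 to 12 lower. For the OGT-KO effect minus the OGA-KO effect (7 higher, 9 lower) the counts were 25 and 1 by library totals, 9 and 5 with upper-quartile factors, 0 and 1 with DESeq2, 0 and 1 without the line term, 6 and 6 without the day term, and, without the day term and 1 library, 3 and 4 for the OGA control of 14 days and 4 and 2 for that of 28 days (range 3 to 7 higher and 2 to 9 lower over the 4 libraries). In the OGT pair the members at least 1.5-fold different (2 higher, 3 lower) were 20 and 1 by library totals, 6 higher with upper-quartile factors, and 0 and 1 at 2-fold. Shares of all genes are not given for these fold counts under other scalings, nor for the difference between effects in the alternative fits. Those counts therefore have no background and are not read as a trait of the members. The median was 0.39 by library totals, a shift shared with all genes (0.369). By library totals 22 fitted log2 ratios turned from negative to positive and 0 the other way. Of these, 5 had been called lower, Hnrnpa3 (0.0491), Hnrnpu (0.0136), Sf3b2 (0.0305), Srrm2 (0.0646) and Srsf4 (0.0297), and 4 were then called higher, Hnrnpa0 (0.288), Hnrnpk (0.352), Hnrnpm (0.301) and Srsf2 (0.342). Size factors of DESeq2, no filter and no day term kept every count within 1.5 times, and the OGA-KO counts were 0 in every alternative. Beyond the shift between scalings, the cause of these differences was not tested. Leaving out an OGT library would leave no OGT-KO effect to fit, so none was run.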
